A study of Mus musculus with 3 samples.

Results

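Isolated CpG islands were the 846 autosomal array regions of 3 to 11 probes with no other region starting within 200 kb on either side, out of 13729 autosomal regions of at least 3 probes. Probes were sorted by their start on the chromosome and joined while the next start lay within 500 bp. H3K27me3, trimethylated lysine of histone H3, was measured in epithelial cells of the colon from male Balb/c mice, by chromatin immunoprecipitation and hybridisation to a 2-colour Agilent array that tiles mouse CpG islands. Each of the 3 arrays held 1 pool of 3 mice: 7-week-old untreated mice, 23-week-old untreated mice, and 23-week-old mice that had been given 2% DSS for a week when 7 weeks old. They are called the younger, the older untreated and the DSS mice. DSS, dextran sulfate sodium, is a polymer in drinking water that injures the colonic epithelium and causes colitis. Crypts were isolated from the colon, so a value averages all cells of the crypt preparation, and a change in the cell mixture cannot be told apart from a change of the mark within cells. The Cy5 (red) channel held the immunoprecipitate and the Cy3 (green) channel the input, whole-cell extract that was not immunoprecipitated.

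H3K27me3 is written by Polycomb repressive complex 2 and is read by Polycomb repressive complex 1, and the pair keeps genes silent without altering their DNA. In mammals, CpG islands that are free of DNA methylation are the usual sites where these complexes settle, and many of the islands that carry the mark in adult tissue belong to developmental regulators. Such regulators often lie in gene-poor stretches, whereas islands of housekeeping genes tend to lie close together and to lack the mark.

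The level of a region was the median log2 ratio of immunoprecipitate over input across its probes, relative to the median autosomal probe of the same array, so that 0 is the typical probe. A region was called marked at a level of at least 1, a 2-fold enrichment. Since each group has a single array, differences have no replicate check and no p-value across regions is given. The SD printed with a region describes how its probes differed on 1 array, and intervals on shares of regions are exact Clopper-Pearson 95% intervals that cover counting error only. The 3 arrays sat on different slides, so slide and group cannot be told apart, and the number of arrays limits the precision.

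The isolated regions were as finely tiled as the rest. They had a median of 6 probes and a median length of 666 bp, against 6 probes and 622 bp in the other 11630 autosomal regions of 3 to 11 probes, which serve as the comparison below. Their nearest region started at a median distance of 339.1 kb, with quartiles at 249 and 528 kb. For 224 of them the nearest region started over 500 kb away, for 59 over 1000 kb, and the most remote lay 5155 kb from any other. The comparison regions had a median distance of 23.1 kb. Distance here means distance to another region on this array: 66 of the 846 had a group of 1 or 2 probes, too small to count as a region, within 200 kb, and 16 were the first or last region of their chromosome. Of the isolated regions, 333 (39.4%) had another isolated region as their nearest. Chromosome 3 had the highest share of isolated regions (74 of 612, 12.1%) and chromosome 11 the lowest (28 of 1202, 2.33%). The label as CpG islands rests on the array's design, since no probe is paired with a sequence or a gene in the files.

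On every array the isolated regions lay higher than the comparison regions in the middle of the distribution. At 7 weeks their median level was 0.06, against -0.31 in the other regions. In untreated mice at 23 weeks it was 0.17 against -0.46, and after DSS 0.01 against -0.25. The difference of the medians was thus 0.37, 0.64 and 0.27, higher for isolated regions on 3 of 3 arrays. This was not tested: the arrays are 3 different groups, and an exact two-sided sign-flip permutation test over 3 arrays cannot give a p below 0.25. Isolated regions were also depleted of the mark less often than the others on 3 of 3 arrays. A level of -1 or lower was found in 137 (16.2%) at 7 weeks, 202 (23.9%) at 23 weeks and 111 (13.1%) after DSS, against 24.2%, 33.0% and 18.2% of the other regions. This share was uneven with distance to the nearest region. In isolated regions at 200 to 500 kb it was 17.4%, 25.6% and 14.3%, close to 18.1%, 26.3% and 13.1% in other regions at 100 to 200 kb, and higher on the DSS array. Over 500 kb it was 12.9%, 19.2% and 9.82%. Among the others it was 17.3%, 22.3% and 13.4% within 5 kb, but 28.3%, 37.6% and 22.3% at 5 to 20 kb. By rank, which scaling leaves in place, 17.8%, 18.2% and 18.4% of the isolated regions lay in the lowest 25% of each array, against 26.7%, 26.5% and 26.7% of the others. Ranked among all autosomal regions of the same array, which takes out differences in range, the median isolated region stood at percentile 61.4, 62.9 and 59.9.

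**Figure D1:**
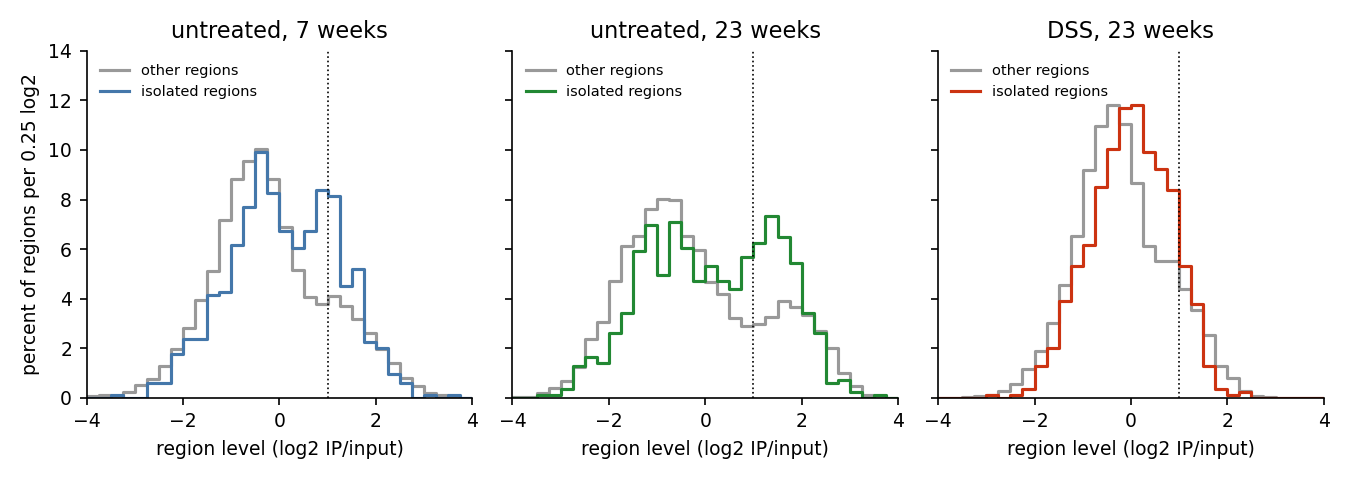
Distribution of region levels (x axis, log2 of immunoprecipitate over input, centred on the median probe) as the percent of regions in steps of 0.25 (y axis), for 846 isolated regions (coloured) and 11630 other regions of 3 to 11 probes (grey) on each array. The dotted line is the threshold for a mark. On both untreated arrays the coloured line has a second hump around or just above the line, larger than the grey one, and after DSS this hump is merged into the main peak, with 11.1% of isolated regions past the line.

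More isolated regions than comparison regions carried the mark on the untreated arrays, and fewer on the DSS array. At 7 weeks 202 of 846 (23.9%, interval 21.0% to 26.9%) were marked, against 18.6% of the other regions and 20.4% of all autosomal regions. At 23 weeks 281 (33.2%, 30.05% to 36.5%) were marked, against 23.5% of the others and 25.5% of all. After DSS 94 (11.1%, 9.07% to 13.4%) were marked, against 12.9% of the others and 14% of all. The gap between isolated and other regions was 5.25 percentage points on the 7-week array, 9.72 on the older untreated array and -1.80 on the DSS array, and the last of these turned to 0.873 after scaling the arrays to the same interquartile range and to 1.28 with quantile normalisation. With loess within each array the gap at 23 weeks turned to -0.414. The arrays differed in range: probe log2 ratios had an interquartile range of 1.98 in the younger mice, 2.56 in the older untreated mice and 1.56 in the DSS mice, so a fixed threshold takes in different depths of each distribution. After scaling, 24.6%, 26.95% and 18.9% of the isolated regions were marked, against 19.1%, 20.5% and 18.0% of the others.

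Where isolated regions carried the mark, its level was moderate. The median marked isolated region had 1.45 in the younger mice, 1.62 in the older untreated mice and 1.26 in the DSS mice, against 1.61, 1.86 and 1.38 for marked regions of the comparison set. A level of at least 2 was reached by 32 isolated regions (3.78%) at 7 weeks, 65 (7.68%) at 23 weeks and 3 (0.355%) after DSS, against 4.996%, 9.70% and 1.19% of the others. By distance, that share at 7 weeks was 13.4% within 5 kb, 2.80% at 20 to 50 kb, 2.22% at 50 to 100 kb and 2.63% at 100 to 200 kb. In isolated regions it was 4.02% at 200 to 500 kb and 3.13% over 500 kb. The upper 25% of each array's ranking held 33.1%, 32.4% and 27.9% of the isolated regions, and the upper 10% held 8.63%, 7.09% and 6.38% of them.

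The excess of marked isolated regions on the untreated arrays lay among those with 6 or more probes. Among regions of 3 to 5 probes, 18.0% of 388 isolated and 19.6% of 5759 other regions were marked at 7 weeks, and 26.5% and 25.5% at 23 weeks. Among regions of 6 to 8 probes the shares were 28.5% of 312 against 16.6% of 4186 at 7 weeks and 38.8% against 20.6% at 23 weeks. With 9 to 11 probes they were 29.5% of 146 against 20.4% of 1685 at 7 weeks and 39.0% against 23.8% at 23 weeks. The lower share of depleted regions held in each of these groups: at 7 weeks a level of -1 or lower was found in 20.9%, 13.8% and 8.90% of isolated regions with rising probe number, against 26.0%, 24.1% and 18.1% of the others.

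The share of marked regions did not change evenly with distance from the next region. It was highest where another region started within 5 kb (37.3% of 2006 in the younger mice, 43.2% in the older untreated mice and 29.2% in the DSS mice). It was lowest at 20 to 50 kb, with 12.5% of 3174, 16.7% and 7.97%. Beyond that distance it was higher again: 18.3%, 24.6% and 10.4% at 100 to 200 kb, and 24.0%, 33.8% and 13.2% of the 622 isolated regions at 200 to 500 kb. In the 224 isolated regions over 500 kb from the next, the untreated arrays stayed near these values (23.7% and 31.7%), whereas after DSS 12 regions (5.36%, 2.80% to 9.17%) were marked. Just outside the rule, 136 regions with their nearest neighbour at 175 to 200 kb had 17.6%, 23.5% and 11.8% marked. Just inside, 123 regions at 200 to 225 kb had 22.0%, 30.9% and 13.8%. Whether the share changes gradually or in a step at the cut was not tested.

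**Figure D2:**
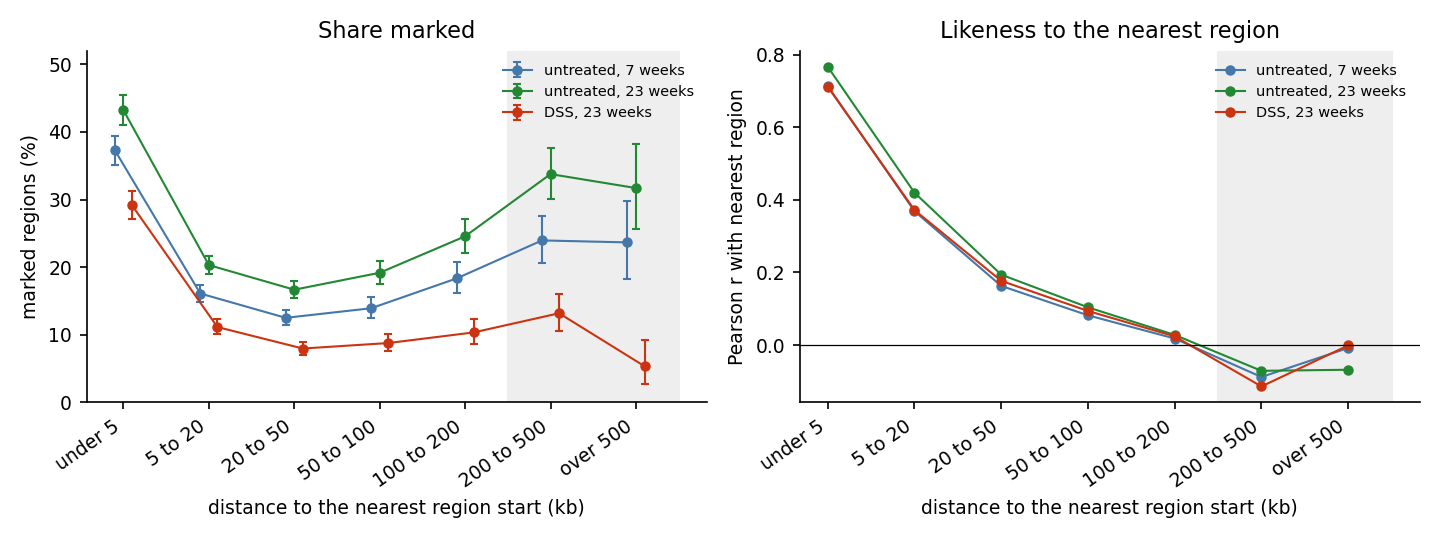
Left, percent of regions of 3 to 11 probes that were marked (y axis, exact 95% intervals for counting error) by distance to the nearest region start in kb (x axis), for the 3 arrays. Right, Pearson correlation of a region's level with that of its nearest region in the same distance groups. The shaded groups hold the isolated regions: their marked share on the untreated arrays is above that at 20 to 200 kb, the DSS array drops to 5.36% over 500 kb, and their correlation with the nearest region lies between -0.114 and -0.001.

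The level of an isolated region showed little relation to that of its nearest region, whereas the levels of regions within 20 kb of each other went together. Across the 846 isolated regions the correlation with the nearest region was r = -0.071 (rho = -0.082) at 7 weeks, -0.072 (-0.077) at 23 weeks and -0.090 (-0.102) after DSS. Across the 5334 regions within 20 kb of another it was 0.546 (0.507), 0.595 (0.543) and 0.544 (0.518). Regions that are each other's nearest enter from both sides, and both members of a pair share the array, so these are descriptions over regions. In counts, 40 of the 202 isolated regions marked at 7 weeks (19.8%) had a marked nearest region, against 154 of the 644 unmarked ones (23.9%). The shares were 29.5% and 31.3% at 23 weeks and 12.8% for both after DSS. Within 20 kb, 67.6% of marked and 12.1% of unmarked regions had one at 7 weeks. The weak relation was not particular to isolated regions. On the 3 arrays the correlation was 0.163, 0.194 and 0.177 at 20 to 50 kb and 0.082, 0.104 and 0.094 at 50 to 100 kb. At 100 to 200 kb it was 0.018, 0.028 and 0.024, and over 500 kb -0.008, -0.068 and -0.001.

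Inside the isolated regions, outer probes were lower over the whole set (a median of 0.12 in outer probes at 7 weeks and 0.37 in inner ones), but where the mark was present the ratio was nearly even from centre to edge. Among those marked at 7 weeks, inner probes had a median of 1.38, middle ones 1.48 and outer ones 1.45, by equal steps of distance from the centre. After DSS the same probes had 0.87, 0.92 and 0.91. Both channels were lower at the edge: at 7 weeks the immunoprecipitate was 1.93, 1.99 and 1.57 above the array's median probe and the input 0.47, 0.50 and 0.07. Other marked regions had a like profile, with ratios of 1.58, 1.58 and 1.67. The probes of an isolated region also differed less among themselves, with a median SD of 0.85, 0.75 and 0.64 on the 3 arrays against 0.94, 0.90 and 0.76 in the other regions. The channels behind the ratio were close in the input: the median isolated region had an input log2 intensity 0.08, 0.06 and 0.06 above the array's median probe, against -0.01 on each array for the others. In the immunoprecipitate it had 0.13, 0.24 and 0.05, against -0.37, -0.45 and -0.28. Of the 5187 probes of isolated regions, 1.83%, 4.05% and 2.87% fell short of the scanner's well-above-background flag in the immunoprecipitate, against 2.65%, 5.49% and 4.19% in the other regions.

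The strongest isolated islands were chosen by their mean over all 3 arrays, so a mark on each array largely follows from that choice. Among those of at least 4 probes, the highest mean over the arrays was found on chromosome 2 from 27708117 to 27709222 (7 probes, nearest region at 210 kb). It had 3.02 ± 0.97 in the younger mice, 2.94 ± 0.64 in the older untreated mice and 2.23 ± 0.66 in the DSS mice. On the same chromosome, the region from 115753580 to 115753964 (4 probes) had 2.52 ± 0.33, 2.76 ± 0.25 and 2.32 ± 0.34. A region on chromosome 16 from 67538479 to 67539014 (5 probes) stood 1805 kb and 2658 kb from its neighbours and had 2.53 ± 1.05, 3.01 ± 0.79 and 1.69 ± 0.83. The region on chromosome 10 from 102457777 to 102458305 (5 probes) had 2.43 ± 0.47, 2.68 ± 0.26 and 1.89 ± 0.46. The other 2 of the 6, on chromosome 2 from 123781310 to 123782254 and chromosome 1 from 175203808 to 175204562, were among those lower after DSS by over 1. All 6 were marked on every array, as measured and after scaling. As measured each was lowest on the DSS array, but after scaling this held for those on chromosome 16 and on chromosome 2 from 123781310, and the other 4 were lowest on the older untreated array.

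At the other end, the region on chromosome 4 from 52459878 to 52460649 (5 probes, nearest region at 573 kb) had the lowest mean among those of at least 4 probes, with -3.29 ± 2.15 in the younger mice, -3.46 ± 1.43 in the older untreated mice and -2.77 ± 1.64 in the DSS mice. On chromosome 19 from 31148579 to 31149216 (5 probes) the levels were -2.73 ± 0.97, -2.69 ± 0.87 and -2.42 ± 0.96. The remaining 4 of the 6 lowest lay on chromosomes 1 (171367870 to 171368346), 5 (72446882 to 72447469) and 2 (109081398 to 109082048 and 136582323 to 136582867), with levels from -3.04 to -1.76. These levels rest in part on dim probes: in the immunoprecipitate, 6 of the 29 probes of these 6 regions were not well above background at 7 weeks, 11 at 23 weeks and 9 after DSS. Values of such probes are closer to bounds than to measured levels. The region on chromosome 2 from 136582323 had 0, 1 and 0 dim probes of 5, but its probes were mixed, from -3.94 to 1.11 at 7 weeks. The means of the 6 regions over the arrays ran from -3.17 to -2.18, but from -1.19 to -0.16 with loess and from -1.30 to -0.59 with normexp. With the background and outlier filter 3 of the 6 had fewer than 3 probes left, and the others ran from -2.39 to -0.87, with -1.04 on chromosome 4. As measured all 6 were highest on the DSS array, whereas after scaling only that on chromosome 1 was, at -2.42, and the other 5 were lowest there.

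Of the 5 most remote regions, 4 were marked in untreated mice of 23 weeks and 3 at 7 weeks. The most remote, on chromosome 14 from 92773814 to 92774216 (3 probes), had no other region start within 5155 kb and levels of 0.50 ± 0.51 in the younger mice, 0.51 ± 0.48 in the older untreated mice and 0.12 ± 0.56 in the DSS mice. A pair on chromosome 14 were each other's nearest, at 2763 kb. One, from 110557017 to 110558024 (10 probes), had 1.45 ± 1.17, 1.83 ± 0.83 and 0.69 ± 0.60, and the other, from 107794079 to 107794350 (3 probes), had 1.17 ± 0.78, 1.13 ± 0.38 and 0.21 ± 0.52. The region on chromosome 12 from 96090990 to 96091771 (8 probes) had 0.99 ± 0.61, 1.54 ± 0.39 and 0.76 ± 0.38. On chromosome 3 from 73143254 to 73143584 (4 probes) the levels were 1.53 ± 0.44, 1.92 ± 0.32 and 1.05 ± 0.47. Only the last of the 5 was marked after DSS.

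Whether the mark at isolated islands changed with age was addressed by untreated mice of 23 against 7 weeks. A region was called gained when the median difference of its probes was at least 1 and it was marked on the later array, and lost with a difference of -1 or lower if it was marked on the earlier one. None of the 846 isolated regions was gained and none was lost, and a count of 0 allows a share of up to 0.355% (3 regions of 846), or 0.435% by the exact interval. Over all autosomal regions 0.0728% were gained and 0% lost. Of the 202 isolated regions marked at 7 weeks, 198 (98.0%) were marked at 23 weeks, against 98.8% of the others. Of the 281 marked at 23 weeks, 83 had been below the threshold at 7 weeks. Among these, 81 (9.57% of isolated regions) were marked on the 23-week array only, against 4.64% of the others. That array had the wider interquartile range (2.56 against 1.98). After scaling, 24.6% of isolated regions were marked at 7 weeks and 26.95% at 23 weeks, against 19.1% and 20.5% of the others. The median difference was 0.11 in isolated and 0.03 in other regions, and 0.02 and 0.04 after scaling, so the order of the sets turned with the scaling. Levels of the isolated regions on these arrays correlated at r = 0.952 (rho = 0.960), against 0.957 (0.954) for the others.

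The largest rise with age among isolated regions of at least 4 probes was 0.93, on chromosome 4 from 125231815 to 125232109 (4 probes), with 1.17 ± 0.66 in the younger mice, 1.80 ± 0.48 in the older untreated mice and 1.14 ± 0.53 in the DSS mice. The differences of single regions are medians over probes and need not equal the difference of the medians. The next rises were 0.88 on chromosome 6 from 135698609 to 135699015 and 0.85 on chromosome 13 from 108765648 to 108766055. Among regions of at least 4 probes with at least 80% of them moving together, the largest falls were -0.88 on chromosome 5 from 116285105 to 116285554, -0.84 on chromosome 16 from 29498942 to 29499409 and -0.75 on chromosome 13 from 14404992 to 14405714, all in regions with levels below 0 on every array. A larger fall of -1.71 ± 1.34 was measured in a region of 3 probes on chromosome 7 from 68622488 to 68622766, with -0.63 ± 0.25 at 7 weeks and -2.29 ± 1.13 at 23 weeks, which was not called because it was unmarked at 7 weeks. Each of the 3 rises was smaller with the arrays scaled (0.48 to 0.69), and the fall on chromosome 13 turned to 0.09. With the normexp background correction the fall on chromosome 16 turned to 0.15. Of the isolated regions, 4 were marked at 7 weeks but not at 23 weeks. On chromosome 5 from 49812736 to 49813354 the levels were 1.11 ± 0.46 and 0.86 ± 0.44. Its neighbour on chromosome 5, from 50346460 to 50347588, had 1.22 ± 1.503 and 0.44 ± 1.26, although the median difference of its 9 probes was 0.01. The others lay on chromosome 6 from 102530365 to 102530744, with 1.02 ± 0.80 and 0.95 ± 0.94, and on chromosome 7 from 71578897 to 71579333, with 1.08 ± 0.76 and 0.93 ± 0.39.

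DSS-treated against untreated mice of 23 weeks showed the isolated regions lower more often than others. Of the 846, 66 (7.80%, 6.09% to 9.82%) were lost and 0 gained, against 365 (3.14%) lost and 1 gained among the other regions of 3 to 11 probes. Over all autosomal regions 3.45% were lost and 0.00728% gained. A loss requires a mark on the untreated array, and isolated regions had more marks there. As a share of regions marked at 23 weeks, 23.5% of isolated and 13.4% of other regions were lost. The mark was kept after DSS, at a level of at least 1, by 94 of the 281 (33.5%) and by 54.4% of the others. Keeping a level of at least 1 depends on the starting level. That level was lower in marked isolated regions, with a median of 1.62 against 1.86 at 23 weeks. Regions of like level are compared below. In the whole set of isolated regions the median difference was -0.21, with 518 of 846 lower (61.2%), against 0.03 and 47.9% in the others.

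Most of these calls did not hold once the arrays had a common range. After scaling, 3 isolated regions were lost (0.355%), against 0.153% of all autosomal regions. The median difference was then -0.15 in isolated and -0.09 in other regions. Of those marked at 23 weeks, 66.2% of isolated and 82.7% of other regions were also marked after DSS, shares not matched for starting level. The difference in range between arrays was not tested for its source, and it cannot be told apart from a general change of the mark after DSS. Over the 66 lost regions the median level was 1.496 in the younger mice, 1.87 in the older untreated mice and 0.78 in the DSS mice. Of the 66, 19 (28.8%) were still marked after DSS, against 53.7% of the lost comparison regions. At 7 weeks 56 (84.8%) had been marked, against 90.1% of the lost comparison regions. These shares were not matched for starting level. The median difference of the 66 was -1.13 ± 0.16 (SD over regions) and -0.52 ± 0.32 after scaling. The input of these regions differed by a median of 0.01 ± 0.36 and the immunoprecipitate by -1.25 ± 0.42. They lay on all 19 autosomes.

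**Figure D3:**
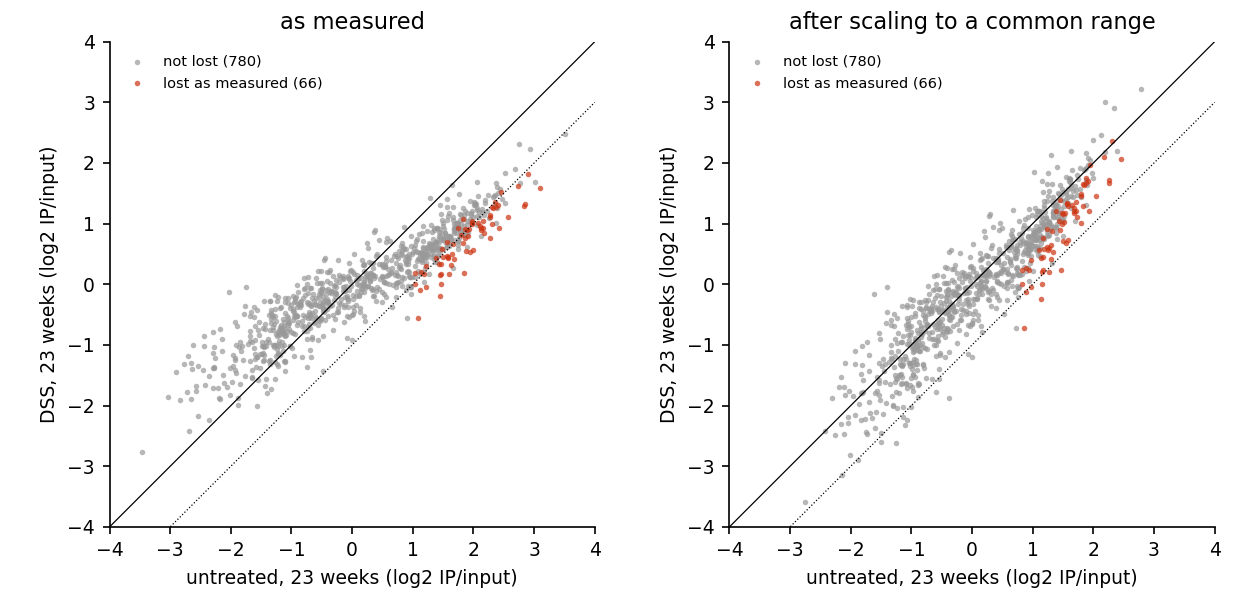
Levels of the 846 isolated regions after DSS (y axis) against untreated mice of 23 weeks (x axis), both as log2 immunoprecipitate over input, as measured (left) and after scaling to a common interquartile range (right). The solid line marks equal values, the dotted line a level lower by 1 after DSS, and the 66 lost regions are red. As measured the points form a slope flatter than the line, and after scaling the cloud follows the line and the red points have a median difference of -0.52.

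Regions of like level at 7 weeks, an array outside this comparison, were set side by side. Among regions with 1 to 1.5 at 7 weeks the median difference after DSS was -0.78 ± 0.28 in 107 isolated regions and -0.74 ± 0.26 in 910 others. Between 1.5 and 2 it was -0.90 ± 0.25 (n = 63) and -0.80 ± 0.24 (n = 675), and at 2 or more -0.95 ± 0.24 (n = 32) and -0.84 ± 0.22 (n = 581). The SD here is that of single regions, and the differences between the sets were not tested. After scaling the differences were -0.21 against -0.11, -0.16 against -0.01, and 0.00 against 0.18. Between 0 and 1 at 7 weeks the values were -0.46 ± 0.42 in 236 isolated and -0.27 ± 0.37 in 2317 other regions, or -0.21 and -0.07 after scaling. The gap between the sets was largest there as measured, but after scaling it was largest at 2 or more. Between 0 and 1 the isolated regions also stood higher in untreated mice at 23 weeks, at 0.80 against 0.55. At levels below 0 the medians were 0.18 ± 0.36 in isolated and 0.17 ± 0.32 in other regions between -1 and 0, and 0.29 ± 0.42 and 0.35 ± 0.35 below -1.

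**Figure D4:**
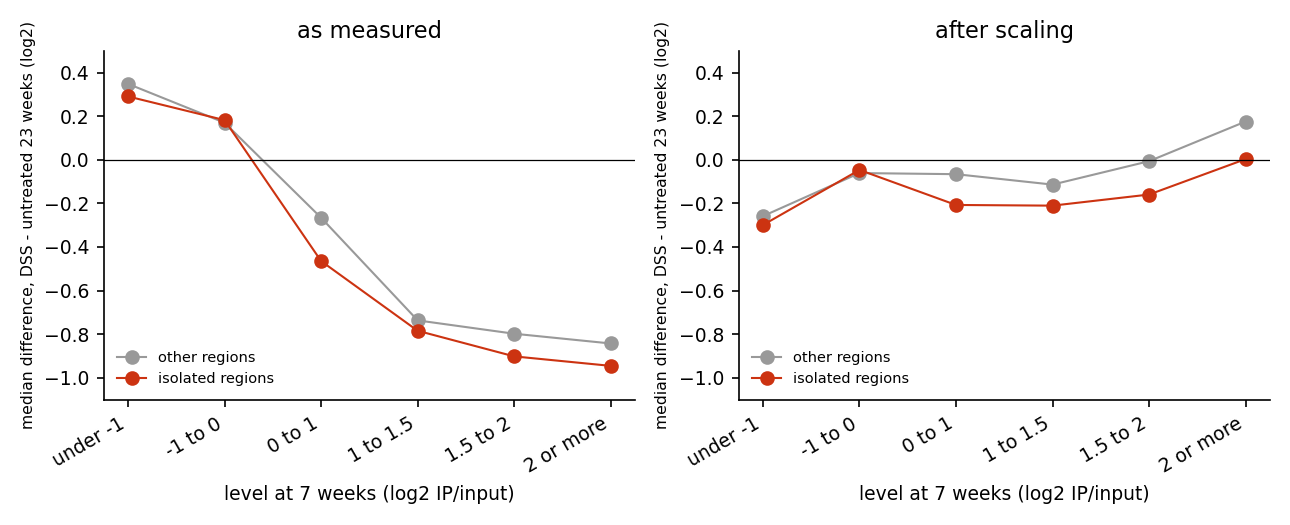
Median difference between DSS-treated and untreated mice of 23 weeks (y axis, log2) for regions grouped by their level at 7 weeks (x axis), as measured (left) and after scaling to a common range (right), for isolated (red) and other regions of 3 to 11 probes (grey). The red points lie below the grey ones in every group from 0 upwards, in both panels, by 0.05 to 0.20.

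As measured, the most remote islands had the highest share of losses after DSS among the distance groups. Of the 224 regions with no other start within 500 kb, 26 (11.6%, 7.72% to 16.5%) were lost, against 40 of 622 (6.43%, 4.63% to 8.65%) at 200 to 500 kb and 365 of the other 11630 (3.14%). Among those others the share was also uneven, with 7.13% of 2006 within 5 kb of another region, 1.51% at 20 to 50 kb and 3.68% at 100 to 200 kb. As a share of regions marked at 23 weeks, 36.6% were lost over 500 kb, 19.05% at 200 to 500 kb and 16.5% within 5 kb. After scaling only 3 isolated regions were lost, with their nearest regions at 2349, 443 and 222 kb, too few to compare by distance. Of the regions over 500 kb, 53 on 19 chromosomes were marked at 7 weeks. Their median level was 1.40 in the younger mice, 1.63 in the older untreated mice and 0.76 in the DSS mice. Their median difference between DSS and untreated mice of 23 weeks was -0.98 ± 0.30, against -0.81 ± 0.25 in 149 regions at 200 to 500 kb and -0.78 ± 0.25 in 2166 other regions of 3 to 11 probes. The SD is that of single regions and does not say how well a median is known, and the difference between the sets was not tested. After scaling these differences were -0.40 ± 0.35, -0.13 ± 0.30 and -0.01 ± 0.32. The most remote regions had the lowest value of the 3 sets under all 9 ways of computing the levels, with -0.21 against -0.13 and -0.07 as the closest, from loess within each array. Their input differed by a median of -0.04 and their immunoprecipitate by -1.19, against -0.01 and -0.96 at 200 to 500 kb.

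The 5 isolated regions of at least 4 probes with the largest loss after DSS were lower at every probe. They had been chosen with at least 80% of probes moving together. One region of 3 probes, on chromosome 14 from 107794079 to 107794350, had a loss of like size, -1.56 ± 0.49, and its input differed by -1.05. On chromosome 2 from 123781310 to 123782254 (8 probes, neighbours at 1325 and 520 kb) the levels were 2.53 ± 1.21 in the younger mice, 3.09 ± 0.77 in the older untreated mice and 1.59 ± 0.80 in the DSS mice, a difference of -1.62 ± 0.19, or 3.08-fold lower. The region was still marked, and the difference was -0.49 after scaling. On chromosome 6 from 53968958 to 53969985 (8 probes, neighbours at 222 and 287 kb) they were 1.02 ± 0.80, 1.44 ± 0.44 and -0.19 ± 0.37, a difference of -1.52 ± 0.50. This region moved from percentile 80.1 of the untreated array to 51.2, and its difference was -1.30 after scaling. With loess it was -1.01.

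On chromosome 1 from 114243974 to 114244557 (6 probes, neighbours at 552 and 5895 kb) the levels were 0.80 ± 0.63, 1.08 ± 0.52 and -0.56 ± 0.62. The difference was -1.49 ± 0.44 as measured and -1.54 after scaling, where the untreated level of 0.86 no longer counted as a mark. On chromosome 2 from 149521771 to 149522818 (10 probes) the levels were 2.30 ± 0.79, 2.56 ± 0.66 and 1.11 ± 0.50, a difference of -1.48 ± 0.39 that came to -0.57 after scaling. On chromosome 16 from 72545687 to 72546573 (7 probes, neighbours at 2349 and 2930 kb) they were 1.00 ± 0.19, 1.46 ± 0.22 and 0.00 ± 0.61, a difference of -1.47 ± 0.51, or -1.17 after scaling. Besides the regions on chromosomes 6 and 16, the third that was lost after scaling lay on chromosome 19 from 17903744 to 17904792. Its 10 probes were all lower, with 0.96 ± 0.34, 1.84 ± 0.42 and 0.18 ± 0.36, a difference of -1.46 ± 0.57 as measured and -1.01 after scaling. In the input the 6 regions differed by -0.44 to 0.13 and in the immunoprecipitate by -2.00 to -1.48. With loess within each array only that on chromosome 6 kept a difference past -1.

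**Figure D5:**
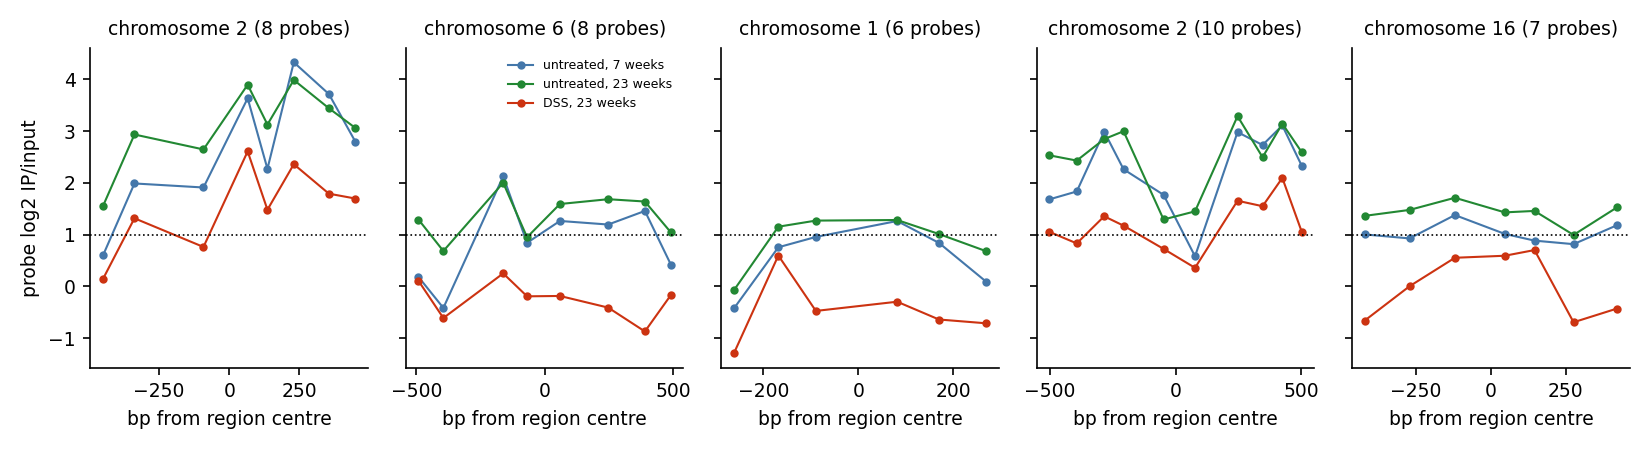
Probe log2 ratios of immunoprecipitate over input (y axis) by distance from the region's centre in bp (x axis) for the 5 isolated regions of at least 4 probes with the largest loss after DSS, in order of size from the left, on the 3 arrays. The dotted line is the threshold for a mark. In each panel every red point (DSS) lies below the green point (untreated, 23 weeks) of the same probe, along the whole region and not at one edge.

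No isolated region was gained after DSS. The largest rises in regions of at least 4 probes with at least 80% moving together were in regions without a mark on any array. They were 1.18 on chromosome 14 from 9954860 to 9955225 (5 probes, -1.46 ± 1.22 in untreated mice of 23 weeks and -0.28 ± 0.43 after DSS), 1.08 on chromosome 13 from 30552353 to 30553034 (6 probes, -2.44 ± 1.74 and -0.85 ± 1.17) and 1.08 on chromosome 12 from 10416770 to 10417322 (5 probes, -1.06 ± 0.59 and -0.22 ± 0.34). The largest rise of any isolated region was 1.24 ± 0.83, on chromosome 4 from 25372301 to 25372652, where 3 of 4 probes rose and no array showed a mark. After scaling the 3 named first were 0.80, 0.62 and 0.55, and with loess the one on chromosome 12 turned to -0.26. A pair of isolated regions (0.236%, against 0.447% of the comparison regions) was marked at 23 weeks and after DSS but not at 7 weeks. One lay on chromosome 10 from 39058938 to 39059952, with 0.94 ± 1.45 in the younger mice, 1.49 ± 1.29 in the older untreated mice and 1.00 ± 1.28 in the DSS mice, and the other on chromosome 15 from 6333481 to 6334156, with 0.91 ± 0.85, 1.56 ± 0.59 and 1.27 ± 0.78. Both were lower after DSS than at 23 weeks at every probe. Against 7 weeks the median difference of their probes was -0.24 on chromosome 10 and 0.14 on chromosome 15.

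DSS-treated mice were also set against untreated mice of 7 weeks, a comparison that differs in age as well as treatment and shares the DSS array with the one above. Here 16 isolated regions (1.89%, 1.09% to 3.05%) were lost and 0 gained, against 0.619% lost and 0.00728% gained over all autosomal regions. After scaling 9 were lost (1.06%), against 0.277% of all. Those on chromosome 1 from 97497713, chromosome 14 from 122761818 and chromosome 2 from 54251406 were not among the 16 lost as measured. Their differences as measured were -0.98, -0.96 and -0.92. Of the 202 isolated regions marked at 7 weeks, 92 (45.5%) were marked after DSS, against 66.3% of the other regions, and 68.8% against 86.2% after scaling. These shares were not matched for starting level, and marked isolated regions had a median of 1.45 at 7 weeks against 1.61. Of the 9 lost after scaling, 3 lay on chromosome 14. The largest difference was in the 3 probes from 107794079 to 107794350 there, the remote region described above, at -1.85 (-1.85 after scaling too), where the input differed by -0.33 from 7 weeks and by -1.05 from 23 weeks. The next was from 38385211 to 38386122 (7 probes), with 1.76 ± 0.61 in the younger mice, 1.19 ± 0.29 in the older untreated mice and 0.18 ± 0.31 in the DSS mice, -1.74 as measured and -1.70 after scaling. The third, from 122761818 to 122762247 (5 probes), had 1.19 ± 0.48, 1.45 ± 0.23 and 0.15 ± 0.49.

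A pair of those 9 regions were neighbours on chromosome 2, with starts 1001 kb apart. The first, from 54251406 to 54252309 (7 probes), had 1.21 ± 0.93 in the younger mice, 1.03 ± 0.59 in the older untreated mice and 0.01 ± 0.44 in the DSS mice. The other, from 55252582 to 55252858 (3 probes), had 1.33 ± 0.43, 1.46 ± 0.20 and 0.18 ± 0.08. Both were lower after DSS than on either untreated array at every probe. The remaining 4 lay on chromosome 1 from 97497713 to 97498144 (0.99 ± 0.62, 0.97 ± 0.50, -0.04 ± 0.50), chromosome 6 from 53968958 to 53969985, given above, chromosome 6 from 102530365 to 102530744 (1.02 ± 0.80, 0.95 ± 0.94, -0.05 ± 0.26) and chromosome 7 from 134775767 to 134776625 (1.80 ± 0.73, 1.88 ± 0.73 and 0.55 ± 0.43).

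Marked isolated regions were spread over the chromosomes. In untreated mice of 23 weeks the share ran from 23.5% of 17 on chromosome 19 (6.81% to 49.9%) to 46.4% of 28 on chromosome 11 (27.5% to 66.1%), and the intervals of these extremes overlapped. After DSS it ran from 5.71% of 35 on chromosome 18 to 21.4% of 28 on chromosome 11. Chromosome 2 had the largest number marked at 7 weeks, 20 of 65, and chromosome 1 the largest number at 23 weeks, 29 of 84.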

How the data were processed

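Per the labels, 3 pools of 3 mice gave 1 array each, with input in Cy3 and immunoprecipitate in Cy5. The authors deposited spot intensities from Agilent's Feature Extraction software. The file headers give its version as 10.7.3.1, and the submitters' processing notes give 9.1. Background was subtracted and one linear dye factor applied per channel in the processed intensity, per the file headers. The log10 ratio column that was deposited matched the processed intensities within 0.001 at all but 3 of 283497 autosomal values. The deposited series table holds a linear ratio per probe, made in a way not given in the sources used here, and served as an alternative. The files name no genome build and pair no probe with a gene or sequence, so neither is given, and coordinates are as the files state them.

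All 94499 autosomal non-control probes entered, without a background or outlier filter, so very low levels can rest on probes near background, and 79 were written with start after end. Each array's median log2 ratio was set to 0, and neither loess nor quantile normalisation was applied. Median background-subtracted intensity was 479, 121 and 270 in the immunoprecipitate and 541, 219 and 496 in the input (7 weeks, 23 weeks, DSS), and no probe was saturated. Scaling set the arrays to a common interquartile range. The join and isolation rules were checked by direct search on the array's own probe positions. The loss call was tested on simulated levels only. These had larger drops than the lost isolated regions and less spread among probes than the median region. Python 3.11.15, pandas 2.3.3, scipy 1.17.1, R 4.3.3 and limma 3.58.1 were used.

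Regions named were the 6 highest and 6 lowest by mean over the arrays with at least 4 probes, the 5 largest losses and gains per main comparison with at least 4 probes and 80% of them moving together (3 where none was called), the 5 most remote, and groups of 5 or fewer. The 9 regions lost against 7 weeks after scaling were named after their values were seen, as were the one on chromosome 19 and the extreme values on chromosome 7 from 68622488 and chromosome 4 from 25372301. The members, rules and lists were chosen with earlier results of these data known.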

Additional observations from a re-analysis of the deposited data

How the results depend on the processing

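Over 12 alternatives to the 7 main results that were not 0, 42 of 84 values kept their direction and stayed within counting error, 39 moved and 3 reversed. The other 3 results (lost or gained with age, gained after DSS) were 0, and left 0 for gains with age from the deposited table (0.118%) and for gains after DSS at 100 kb (0.0504%) and quantile-normalised (0.118%). The share of isolated regions marked at 7 weeks was 20.7% with neighbours at least 100 kb away, 15.7% with loess, 20.2% with normexp, 27.4% from the deposited ratio table, 29.4% without centring and 11.2% with the threshold at 1.5. At 23 weeks it was 28.2% at 100 kb, 27% scaled, 26.1% quantile-normalised, 14.1% with loess, 22.2% with normexp and 19.6% at 1.5. After DSS it was 5.36% at 500 kb, 18.9% scaled, 20.2% quantile-normalised, 8.39% with loess, 6.62% with normexp, 13.5% from the deposited table, 14.8% without centring and 2.01% at 1.5. The gap to other regions at 7 weeks was 2.04 points at 100 kb, 1.75 with loess, 8.32 without centring and 0.43 at 1.5. At 23 weeks it was 4.87 at 100 kb, 6.48 scaled, 5.99 quantile-normalised, -0.414 with loess, 3.90 with normexp and 2.37 at 1.5. After DSS it was -7.56 at 500 kb, and turned to 0.873 scaled and 1.28 quantile-normalised. The share lost after DSS against 23 weeks was 5.44% at 100 kb, 11.6% at 500 kb, 5.82% with the background and outlier filter, 0.355% scaled, 0.236% quantile-normalised, 0.355% with loess, 0.473% with normexp, 10.9% from the deposited table and 5.79% at 1.5. Among single regions, the age difference turned to 0.15 with normexp on chromosome 16 from 29498942, and to 0.088 scaled, 0.45 with normexp and 1.44 from the deposited table on chromosome 13 from 14404992. The DSS difference on chromosome 12 from 10416770 turned to -0.26 with loess. The cause of these changes was not tested. The comparison by distance among regions marked at 7 weeks was chosen after seeing the data. No paired analysis was possible because each group has 1 array, and no array could be left out. The immunoprecipitate signal was lowest at 23 weeks, which limits depleted regions most there.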
